A study of Mus musculus with 2 samples.

Results

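The mitochondrial carriers named Slc25a followed by a number were followed through single-cell RNA profiles of mouse small-intestine epithelium. They were every gene of the table with such a name, which gave 43 members among 25663 genes. The study set 1 Tet3 knockout library beside 1 Control library at E18.5, shortly before birth, each from sorted epithelial cells pooled from 2 embryos whose strain is labelled C57BL6/J. Tet3 oxidises methylated cytosine in DNA. The knockout allele lacks exon 5 in every cell of the body. It was made in embryonic stem cell clones and bred through the germ line into a line backcrossed to C57BL6/JRccHsd. Cells of both libraries were fixed in 90% methanol before droplet capture. Barcodes in the table end in 1 of 2 suffixes, called set 0 and set 1 here, and no label ties a suffix to a genotype. Tet3 knockout and Control were therefore not compared, and the sets stand side by side without a genotype.

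Carriers of this family sit mostly in the inner mitochondrial membrane, where each moves a small molecule between the cytosol and the matrix. Most work as exchangers, and the proteins share a fold built from repeats of the same short unit. Among them, the adenine nucleotide carriers hand ATP to the cytosol in exchange for ADP, the phosphate carrier brings in the phosphate that ATP synthesis uses, and other members serve the malate-aspartate shuttle, the urea-cycle steps of the matrix, fatty acid oxidation, iron and haem metabolism and cofactor supply. Small-intestinal enterocytes are absorptive cells with many mitochondria. In newborn mammals they burn fatty acids and glutamine and make citrulline.

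Members were described over cells ordered by Fabp1, a fatty acid binding protein of absorptive enterocytes, by Fabp6, the ileal bile acid binding protein, by the sum of the proliferation genes Mki67 and Top2a, and by the sum of the goblet cell genes Muc2, Fcgbp and Spink4. Values are a signal scaled to 10000 per cell, called CP10K. Set 1 was used without 818 rows whose barcode also occurs in set 0, which left 5933 cells of set 0 and 5120 of set 1. Recovered depth was close in the sets, with a median of 23657 UMIs (unique molecular identifiers) per cell in set 0 and 22374 in set 1. Epcam, an epithelial surface protein, averaged 8.94 to 17.9 CP10K at both ends of all 4 orderings, and the markers of tuft cells (2 of 3 listed were in the table) and of immune cells (3 of 5) each summed to at most 0.0613 CP10K there. Cells are not replicates and no group had a second library, so no test was made. A member is called past 2-fold where its mean level differed at least 2-fold in the same direction in both sets, and the share of all genes that did so stands beside each count. Intervals are 95% exact ones and cover counting error only.

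The family's transcripts were dominated by a few carriers. At a mean of at least 0.1 CP10K, averaged over the sets, stood 23 of the 43 members (53.5%), beside 28.1% of all genes. All 43 summed to 38.9 CP10K, of which the phosphate carrier Slc25a3 made 42.9%, and Slc25a3 with Slc25a5 made 66.8%. UMIs were counted near the transcript's 3′ end, so levels of different genes are set side by side without scaling to length. Slc25a3 averaged 17.6 CP10K in set 0 and 15.7 in set 1. Slc25a5, the adenine nucleotide carrier of dividing and most other cells, averaged 9.31 CP10K in set 0 and 9.32 in set 1, the closest match between the sets among the leading members. Slc25a4, its counterpart of heart and muscle, averaged 1.10 CP10K in set 0 and 2.60 in set 1.

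Next in order came carriers of the shuttle, of citrate and of the urea cycle. Slc25a11, the oxoglutarate carrier of the malate-aspartate shuttle, averaged 1.77 CP10K in set 0 and 2.14 in set 1. Slc25a39, which brings glutathione into the matrix, averaged 1.34 and 1.37 CP10K in the same order of sets. The citrate carrier Slc25a1 had 1.30 and 1.36 CP10K, and the ornithine carrier Slc25a15, which links the matrix and cytosolic steps of citrulline synthesis, had 1.17 and 1.35 CP10K. These 7 members were the ones at or above 1 CP10K.

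Another 16 members lay between 0.1 and 1 CP10K. Highest of them were the dicarboxylate carrier Slc25a10 at a mean of 0.795 CP10K, the carnitine-acylcarnitine carrier Slc25a20 at 0.682 and the aspartate-glutamate carrier Slc25a13 (citrin) at 0.429. The NAD carrier Slc25a51 (0.339 CP10K), the pyrimidine nucleotide carrier Slc25a36 (0.324) and the iron carrier Slc25a28 (mitoferrin-2, 0.317) followed. Slc25a46, an outer-membrane member tied to mitochondrial fusion and fission, had 0.271 CP10K, and Slc25a44, a carrier of branched-chain amino acids, had 0.215. Below these stood the ATP-Mg/phosphate carriers Slc25a25 (0.194 CP10K) and Slc25a24 (0.107), the iron carrier Slc25a37 (mitoferrin-1, 0.168) and Slc25a38 (0.154), which supplies glycine for haem synthesis. The glutamate carrier Slc25a22 (0.132 CP10K), Slc25a16 (0.127), which is linked to coenzyme A, and the peroxisomal carrier Slc25a17 (0.105) closed the group. Slc25a16 and Slc25a22 lay closer to each other than the values of Slc25a22 in the 2 sets, 0.138 and 0.126 CP10K.

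Under 0.1 CP10K were 20 members, of which 13 had at least 0.01 CP10K. Just under the minimum were Slc25a34 (0.0951 CP10K) and Slc25a26 (0.0876), the carrier of S-adenosylmethionine, while Slc25a17 and Slc25a24 stood just above it. The close relatives of several higher members were found here: Slc25a12 (aralar, 0.0367 CP10K) beside Slc25a13, Slc25a33 (0.0550) beside Slc25a36, Slc25a40 (0.0348) beside Slc25a39, and Slc25a23 (0.0472) beside Slc25a25. Between these and the lowest stood Slc25a42 (0.0706 CP10K), Slc25a14 (0.0474), Slc25a43 (0.0387), Slc25a47 (0.0336), Slc25a32 (0.0320), Slc25a45 (0.0178), Slc25a30 (0.0101), Slc25a53 (0.00845), Slc25a29 (0.00752), Slc25a35 (0.00418) and Slc25a27 (0.00339). Of these, Slc25a42 carries coenzyme A and Slc25a29 basic amino acids. Lowest were Slc25a2 with 12 UMIs, Slc25a31 with 9 and Slc25a48 with 5 in all 11053 cells. Slc25a31 is the adenine nucleotide carrier of male germ cells.

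**Figure D1:**
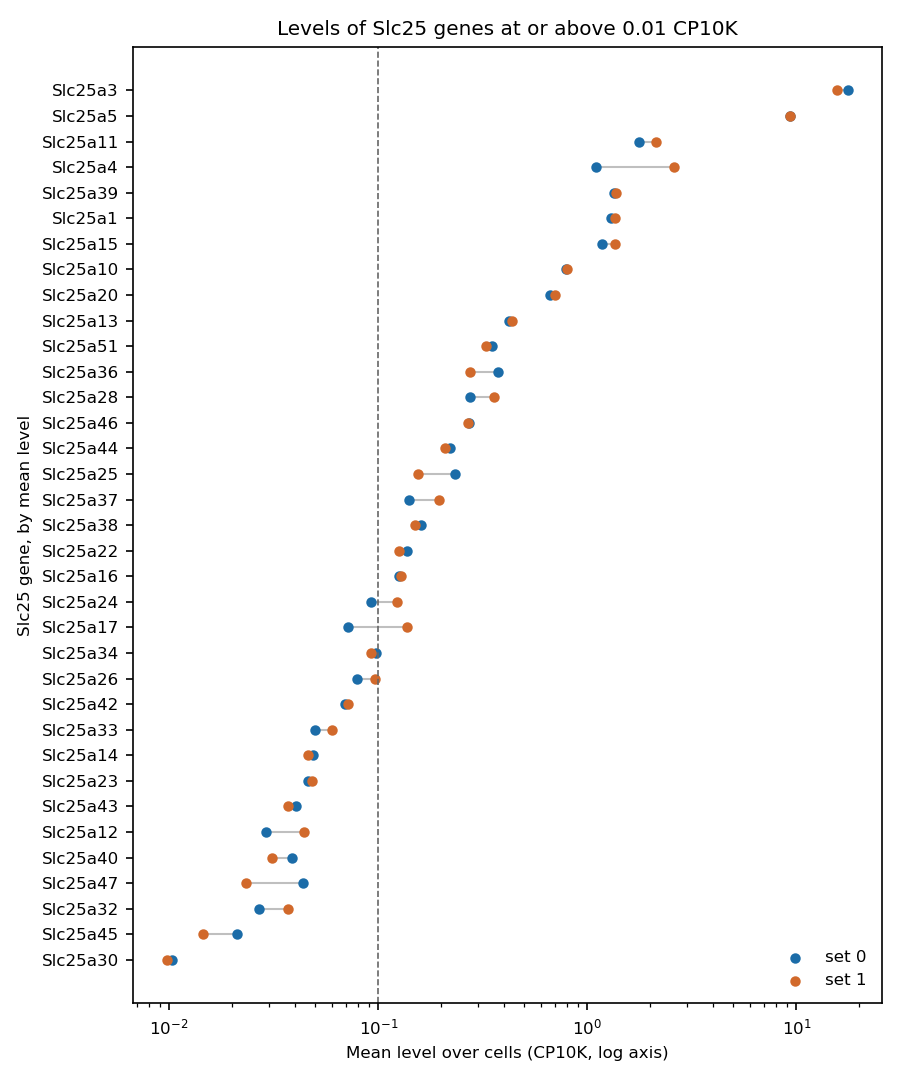
Mean level (CP10K, log axis) of the Slc25 genes named in the text at or above 0.01 CP10K, with 1 point for each set and a dashed line at 0.1 CP10K. Slc25a3 and Slc25a5 stand apart at the top, and the points of Slc25a4 are the widest apart among the 7 members at or above 1 CP10K.

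The 3 adenine nucleotide carriers share a stretch that no other member holds, arginine-rich and ending in 3 methionines, known as the signature of ADP/ATP carriers. It is shown because it identifies these genes among the 43 members and because it shows how alike the coding sequences of Slc25a4 and Slc25a5 are. UMIs were counted near the transcript's 3′ end, and how well reads of the pair can be told apart there was not tested. The lines give 60 coding bases of each transcript from the GENCODE M21 annotation (GRCm38), with the 18 bases that encode the signature in capitals.
Slc25a4: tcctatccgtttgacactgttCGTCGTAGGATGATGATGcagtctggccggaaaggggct
Slc25a5: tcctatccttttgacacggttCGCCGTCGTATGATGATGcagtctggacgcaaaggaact
Slc25a31: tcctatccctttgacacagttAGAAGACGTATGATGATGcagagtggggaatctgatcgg
Between Slc25a4 and Slc25a5, 9 of these 60 bases differ, 3 of them within the signature. Between Slc25a4 and Slc25a31 it is 22 bases, and between Slc25a5 and Slc25a31 it is 20. Over the whole coding sequence, Slc25a4 and Slc25a5 are identical at 77.5% of bases and 89.6% of 298 residues. For comparison, Slc25a13 and Slc25a12 are identical at 76.5% of residues, and Slc25a28 and Slc25a37 at 62.2%. All values of Slc25a4, and 99.98% of those of Slc25a5, were whole multiples of 1 UMI within 0.01, as were 100% of those of Slc25a3. Lower shares were found for Slc25a20 (98.7%), Slc25a37 (98.3%), Slc25a36 (97.1%) and Slc25a40 (90.6%), whose values can include UMIs divided between genes and are less certain. The pseudogene Slc25a5-ps had a mean of 0.000149 CP10K.

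Slc25a4 lies on chr8:46206797-46211284 (minus strand), Slc25a5 on chrX:36795651-36798807 (plus strand) and Slc25a3 on chr10:91116574-91124059 (minus strand) of GRCm38. The family is scattered over 19 chromosomes. Promoter windows of 300 bases are given for the pair of adenine nucleotide carriers because their levels followed different patterns over the cells and sets. Each window is defined as 250 bases before to 50 after an annotated start. They come from RefSeq (GRCm38.p6), with chr8:46211013-46211312 (minus strand) for Slc25a4 and chrX:36795347-36795646 (plus strand) for Slc25a5. The windows do not share the starts of the gene spans above. The Slc25a5 window ends before its gene span begins at chrX:36795651, and the Slc25a4 window lies mostly within its gene span. The base content and motifs below describe the windows as given. Capitals mark the GC box GGGCGG, which reads CCGCCC where it lies on the other strand.
Slc25a4: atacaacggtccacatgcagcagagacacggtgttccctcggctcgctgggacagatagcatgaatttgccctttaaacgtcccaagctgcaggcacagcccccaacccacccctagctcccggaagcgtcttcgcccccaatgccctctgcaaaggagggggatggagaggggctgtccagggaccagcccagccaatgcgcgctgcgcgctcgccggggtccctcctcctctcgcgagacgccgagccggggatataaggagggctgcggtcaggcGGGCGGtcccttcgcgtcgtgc
Slc25a5: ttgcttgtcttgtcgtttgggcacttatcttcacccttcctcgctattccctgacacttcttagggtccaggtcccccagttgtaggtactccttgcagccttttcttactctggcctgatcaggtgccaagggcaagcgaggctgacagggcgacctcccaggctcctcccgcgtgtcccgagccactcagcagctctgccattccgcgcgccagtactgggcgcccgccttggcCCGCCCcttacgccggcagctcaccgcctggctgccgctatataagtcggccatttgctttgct
The Slc25a4 window is 65.7% G and C and the Slc25a5 window 61.0%, against a median of 52.7% over all promoters. On either strand the GC box was found in 17 of the 18 members at the minimum that had a window, against 64.2% of windows of genes at the minimum and 35.7% of all windows. The E-box CACGTG was in 4 of these 18 members, against 11.5% and 7.15%. The element of the respiratory factor NRF1 was in 1 of 18, against 11.2% and 4.60%, and TCAAGGTCA, the element of oestrogen-related receptors, was in 0 of 18, against 0.238% and 0.423%. A match describes these letters and shows no binding.

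Fabp1-high cells had more Slc25a4 transcript and less Slc25a37, and most other members lay higher without reaching 2-fold. The contrast sets 6140 cells above 100 CP10K of Fabp1 against 3864 cells below 40. The low group was not alike in the sets: Fabp6 averaged 33.7 CP10K in set 0 and 1.05 in set 1 there, against 19.5 and 2.61 in the high group. Of the low group 12.3% were above 50 CP10K of Fabp6, and of the high group 7.69%. The part of this was not tested, beyond an alternative kept to cells below 10 CP10K of Fabp6. In that alternative Slc25a4 stayed higher and Slc25a37 lower. Slc25a4 was past 2-fold higher, the 1 member of 23 to be so, beside 3.43% of all genes. Slc25a37 was past 2-fold lower, again 1 of 23, beside 8.33% of all genes. The median log2 ratio was 0.20 over the 23 members and −0.16 over all genes tested. In both sets 15 members were higher (65.2%) and 6 lower (26.1%), beside 33.2% and 57.1% of all genes. Transcripts of the mitochondrial genome made a median of 7.60% of the signal in the Fabp1-high cells and 5.60% in the Fabp1-low cells, and depth a median of 24886 and 19831 UMIs. The 6 enteroendocrine markers summed to 0.108 CP10K in set 0 and 0.103 in set 1 in the Fabp1-high cells, against 1.38 and 2.24 in the Fabp1-low cells, and the 5 mesenchymal markers to 0.0235 and 0.0335, against 0.00875 and 0.540. The part of these in the members' values was not tested, except that the same members were past 2-fold without the 80 cells richest in markers of other cell types. A share of 4.35% past 2-fold in each direction lies near the shares of all genes past 2-fold and is not a result about the family. On a total without mitochondrially encoded, ribosomal protein and haemoglobin genes, 2.81% of all genes were past 2-fold higher and 11.9% lower, and their median was −0.31.

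Slc25a4 averaged 1.42 CP10K in set 0 and 3.34 in set 1 above 100 CP10K of Fabp1, against 0.668 and 1.61 CP10K below 40. Its log2 ratio was 1.07 in set 0 and 1.05 in set 1, and as summed UMIs the ratio was 2.05 (1.98 to 2.13) in set 0 and 2.04 (1.98 to 2.09) in set 1. It lies at the 2-fold edge: the mean log2 ratio of 1.06 was 0.99 with 0.1 CP10K added to the levels, 0.93 on the reduced total, and 0.94 without cycling and goblet cells, all under the edge. Every one of 17 alternatives kept it higher. Within each set the mean was higher above 100 CP10K of Fabp1, but the middle ranges of the cells overlapped. The upper quartile below 40 was 0.978 CP10K in set 0 and 2.33 in set 1, against lower quartiles of 0.347 and 1.64 above 100. Set 1 cells below 40 CP10K of Fabp1 had a higher mean of Slc25a4 than set 0 cells above 100.

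Slc25a3 averaged 22.3 CP10K in set 0 and 19.1 in set 1 in the Fabp1-high cells, against 11.1 and 10.9 CP10K in the Fabp1-low cells, a mean log2 ratio of 0.91. The middle ranges of the cells did not overlap in either set: the lower quartile above 100 CP10K of Fabp1 was 16.9 CP10K in set 0 and 14.9 in set 1, against upper quartiles of 13.3 and 13.0 below 40. In bands of rising Fabp1 the means were 11.1, 14.2 and 22.3 CP10K in set 0 and 10.9, 14.1 and 19.1 in set 1, higher at each step in both sets. Slc25a5 had a smaller span, with 10.9 and 10.2 CP10K in the Fabp1-high cells, against 7.09 and 7.89 in the Fabp1-low cells (log2 0.49). Its middle ranges overlapped, with upper quartiles of 8.66 CP10K in set 0 and 9.67 in set 1 below 40, against lower quartiles of 8.45 and 8.11 above 100. The whole family summed to 28.6, 34.0 and 45.8 CP10K over the 3 bands in set 0 and to 30.4, 37.0 and 45.0 in set 1.

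The next carriers differed by less. Slc25a11, which works in the shuttle that moves reducing equivalents into the matrix, had 2.09 and 2.53 CP10K in the Fabp1-high cells, against 1.29 and 1.52 in the Fabp1-low cells (log2 0.71). The glutamate carrier Slc25a22 had a log2 ratio of 0.66 and the ATP-Mg/phosphate carrier Slc25a25 one of 0.64. The carnitine-acylcarnitine carrier Slc25a20 came just after Slc25a5 at 0.49. All of these were higher in both sets and none was past 2-fold in either.

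Slc25a37 brings iron into mitochondria and is best known from developing red blood cells. It averaged 0.0858 CP10K in set 0 and 0.124 in set 1 in the Fabp1-high cells, against 0.222 and 0.293 in the Fabp1-low cells. Its log2 ratio was −1.28 in set 0 and −1.17 in set 1, with 0.162 and 0.236 CP10K in the middle band, so it was lower at each step of Fabp1 in both sets. The 5 erythroid markers summed to 0.0821 and 0.0578 CP10K in the Fabp1-high cells, against 0.286 and 0.0600 in the Fabp1-low cells, and their part in the values of Slc25a37 was not tested. The 8 proliferation markers summed to 0.984 and 1.08 CP10K in the Fabp1-high cells, against 5.88 and 7.13 in the Fabp1-low cells, and without cycling and goblet cells Slc25a37 had a log2 ratio of −1.09. Its paralog Slc25a28 had a log2 ratio of 0.07 with opposite signs in the sets. The other members at the lower end were Slc25a24 (−0.24), Slc25a38 (−0.17), Slc25a44 (−0.10), Slc25a39 (−0.04) and Slc25a16 (−0.03), all small. On the reduced total Slc25a13, Slc25a28 and Slc25a46, all with ratios near 0, changed sign.

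**Figure D2:**
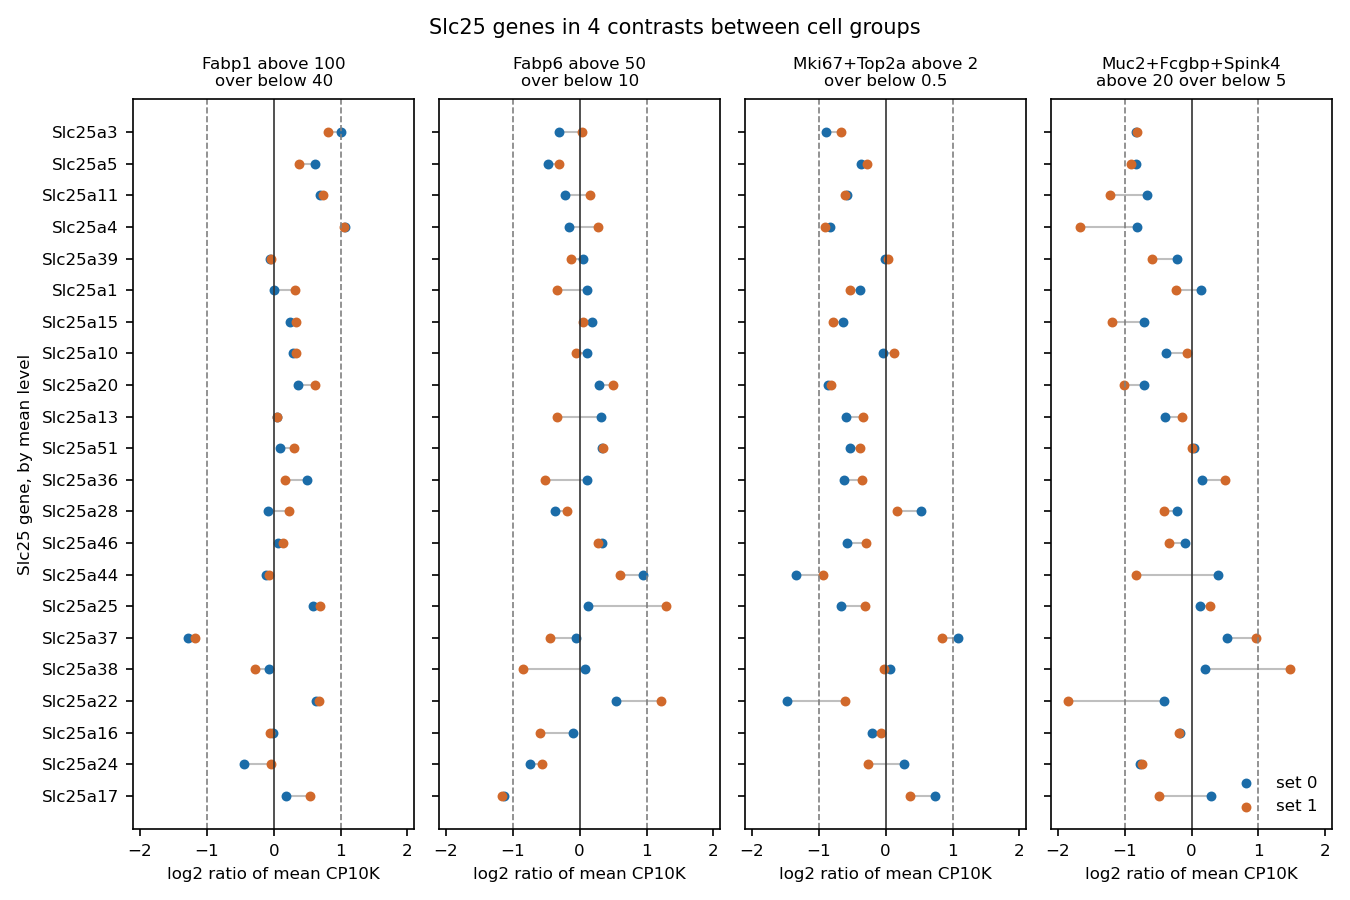
Log2 ratio of mean CP10K of the Slc25 genes named in the text at or above 0.1 CP10K in the 4 contrasts, with 1 point for each set, genes ordered by level and dashed lines at 2-fold. Slc25a4 and Slc25a37 lie past the lines in both sets for Fabp1 and Slc25a17 for Fabp6, and no member does in the other contrasts.

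Cells high in Fabp6 are called ileal-type here after that gene, and the family moved little along it. The contrast sets 1135 cells above 50 CP10K against 8971 below 10, and set 1 gave 27 of the ileal-type cells. Among other ileal markers, Fgf15 had 2.80 CP10K in set 0 and 0.708 in set 1 in the ileal-type cells, against 0.505 and 0.0583 below 10. Slc10a2 was not higher, with 0.0148 and 0 CP10K, against 0.0175 and 0.0176. Before the shared barcodes were left out, set 1 had 206 cells above 50 CP10K, of which 179 carried a barcode of set 0. No member was past 2-fold higher, beside 0.972% of all genes, and 1 of 23 was past 2-fold lower, beside 4.04%. The median log2 ratio was −0.04 over members and −0.04 over all genes. Opposite signs in the sets were found for 10 of the 23 members, beside 1824 of 7202 genes. The 7 enterocyte markers summed to 531 CP10K in set 0 and 862 in set 1 in the ileal-type cells, against 653 and 534 in cells with little Fabp6, so they too had opposite signs in the sets, and their part in these values was not tested.

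The member past 2-fold was Slc25a17, a carrier of coenzyme A, FAD and NAD in the peroxisomal membrane. It averaged 0.0341 CP10K in set 0 and 0.0572 in set 1 above 50 CP10K of Fabp6, against 0.0863 and 0.141 below 10. In summed UMIs the ratio was 0.440 (0.360 to 0.534) in set 0, from 117 UMIs in the ileal-type cells. In set 1 it was 0.328 (0.0675 to 0.959), from 3 UMIs. The middle band held 0.0484 CP10K in set 0 and 0.0706 in set 1, between the ends in both sets. The call ended with 0.1 CP10K added to the levels (log2 −0.54), and set 0 by itself did not call it because its level there was under 0.1 CP10K. Among cells above 100 CP10K of Fabp1 the log2 ratio was −1.24. Cycling cells made 0.617% of the ileal-type cells and 9.10% of those with little Fabp6, and the 8 proliferation markers summed to 0.913 and 0.703 CP10K, against 3.57 and 3.45. Without cycling and goblet cells the log2 ratio of Slc25a17 was −1.04.

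Slc25a22 and Slc25a44, which carry amino acids, had the highest ratios, while Slc25a38, which carries glycine, was among the lowest. Slc25a22 had 0.181 CP10K in set 0 and 0.300 in set 1 in the ileal-type cells, against 0.121 and 0.123 in cells with little Fabp6 (log2 0.88). Slc25a44 had 0.341 and 0.315 CP10K, against 0.173 and 0.204 (log2 0.77), and the UMI ratio was 1.92 (1.78 to 2.07) in set 0 and 1.41 (0.850 to 2.21) in set 1. At 1.5-fold in both sets it was the 1 member counted as higher. Slc25a25 had a log2 ratio of 0.71 but 0.12 in set 0 and 1.29 in set 1, where 24 UMIs were counted in the ileal-type cells. Slc25a20 (0.39), Slc25a51 (0.34) and Slc25a46 (0.30) were higher in both sets.

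Along Fabp6, Slc25a5 was lower in both sets and Slc25a4 had opposite signs in the sets, with 27 ileal-type cells in set 1. Slc25a5 averaged 7.30 CP10K in set 0 and 7.55 in set 1 in the ileal-type cells, against 10.1 and 9.39 in cells with little Fabp6 (log2 −0.39). Slc25a4 averaged 1.02 and 3.12 CP10K, against 1.15 and 2.57 (log2 0.06), lower in set 0 and higher in set 1, and it changed sign in 7 of 17 alternatives. Slc25a24 (log2 −0.66) and Slc25a16 (−0.35) had lower means in both sets. The UMI ratio of Slc25a24 was 0.566 (0.481 to 0.663) in set 0 and 0.879 (0.353 to 1.82) in set 1, from 7 UMIs. That of Slc25a16 was 0.986 (0.877 to 1.11) in set 0 and 0.841 (0.337 to 1.74) in set 1, so its intervals included 1 in both. Slc25a38 (−0.39) was lower in set 1 and slightly higher in set 0. Slc25a3 had 15.1 and 16.1 CP10K, against 18.7 and 15.7.

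Crossing both orderings showed that in set 0 Slc25a3 did not follow Fabp6 in the same way at every level of Fabp1. Of the 18 combinations of set, Fabp1 band and Fabp6 band, 15 had at least 20 cells. Above 100 CP10K of Fabp1, Slc25a5 stood at 11.6, 9.01 and 8.17 CP10K over the rising Fabp6 bands in set 0, and at 10.4, 8.20 and 7.55 in set 1. Slc25a3 stood there at 23.6, 19.1 and 17.4 CP10K in set 0 and at 19.3, 17.3 and 16.1 in set 1, also lower at each step. Below 40 CP10K of Fabp1 in set 0 the order of Slc25a3 was the opposite, with 10.3, 11.4 and 13.0 CP10K over the rising Fabp6 bands. In set 1 it was not, with 10.9 and 9.40 CP10K in the 2 bands that held cells. Slc25a4 in the set 0 cells stood at 0.601, 0.674 and 0.849 CP10K.

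**Figure D3:**
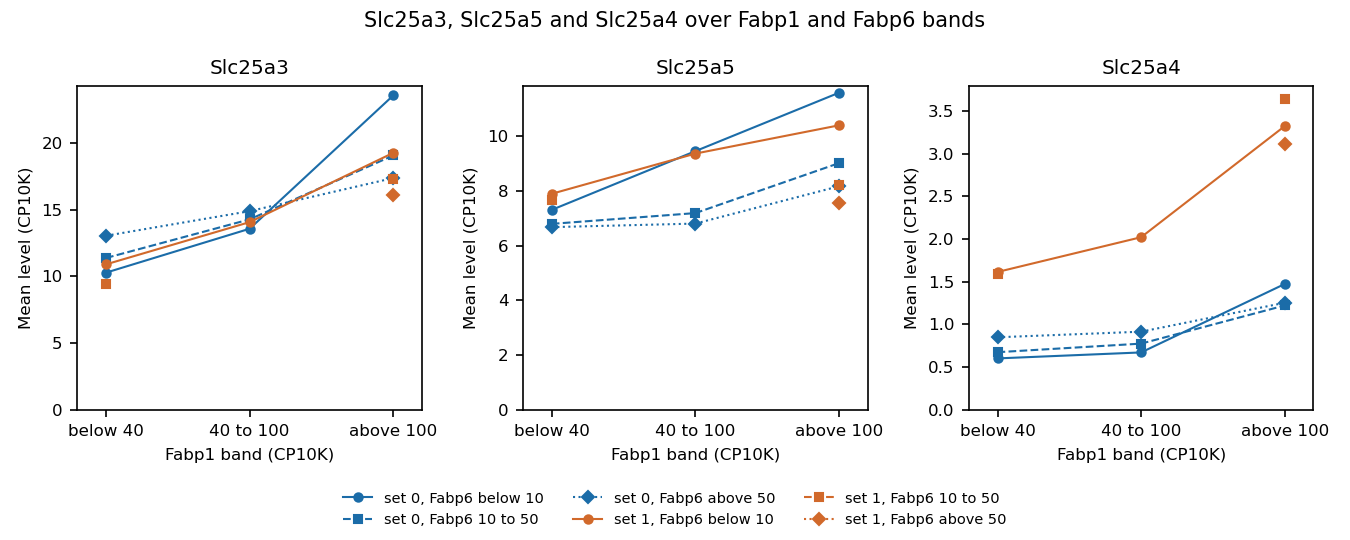
Mean level (CP10K) of Slc25a3, Slc25a5 and Slc25a4 over the 3 Fabp1 bands, with a line and marker for each Fabp6 band and a colour for each set, and combinations with under 20 cells left out. The Fabp6 bands fan out at high Fabp1 for Slc25a3 and Slc25a5, whereas for Slc25a4 the sets lie apart in every band.

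Cycling cells had lower levels of most carriers and a higher level of Slc25a37, none of them past 2-fold in both sets. The contrast sets 844 cells above 2 CP10K of Mki67 and Top2a against 9502 cells below 0.5. Of the cycling cells 89.1% were also below 40 CP10K of Fabp1, against 27.5% of the others, so this ordering shares much with the first. No member was past 2-fold higher, beside 9.21% of all genes, and none past 2-fold lower, beside 11.2%. In both sets 3 members were higher (13.0%) and 16 lower (69.6%), beside 45.4% and 46.5% of all genes. The median log2 ratio was −0.46 over members and −0.01 over all genes. On the reduced total these medians were −0.30 and 0.17, and 12.1% of all genes were past 2-fold higher and 8.65% lower. The family summed to 26.7 CP10K in set 0 and 29.1 in set 1 in cycling cells, against 40.4 and 40.5 in the others.

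Slc25a37 stood highest. It had 0.268 CP10K in set 0 and 0.320 in set 1 in cycling cells, against 0.121 and 0.175 in the others (log2 0.96), with the erythroid markers at 0.0519 and 0.0589 CP10K, against 0.167 and 0.0594. The peroxisomal carrier Slc25a17 had 0.118 and 0.176 CP10K, against 0.0671 and 0.135 (log2 0.55), and mitoferrin-2, Slc25a28, had a log2 ratio of 0.35. These 3 were the members higher in both sets. Slc25a10 (0.04), Slc25a38 (0.02) and Slc25a39 (0.01) followed, each near 0 with opposite signs in the sets.

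Slc25a44 and Slc25a22 had the lowest ratios, followed by Slc25a4 and Slc25a20. Slc25a44 had 0.0882 CP10K in set 0 and 0.112 in set 1 in cycling cells, against 0.238 and 0.224 in the others, a log2 ratio of −1.34 in set 0 and −0.94 in set 1, just short of a call. Slc25a22 followed at a mean log2 ratio of −1.04. Slc25a4 had 0.655 and 1.48 CP10K, against 1.17 and 2.78 (log2 −0.87), Slc25a20 a log2 ratio of −0.84 and Slc25a15 one of −0.72. Slc25a3 had 10.0 and 10.4 CP10K, against 18.7 and 16.5 (log2 −0.78). Slc25a5 differed least of the leading carriers, with 7.38 and 7.87 CP10K, against 9.55 and 9.52 (log2 −0.32).

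Within cells below 40 CP10K of Fabp1 much of this shrank. There the cycling over non-cycling log2 ratio was −0.22 for Slc25a3, −0.36 for Slc25a4 and 0.02 for Slc25a5, which thus changed sign. That of Slc25a37 was 0.44. By contrast Slc25a44 reached −1.57 and was past 2-fold lower, Slc25a17 reached 1.09 and was past 2-fold higher, and Slc25a15 (−0.69) was nearly as in all cells. In that comparison 3.97% of all genes were past 2-fold higher and 9.72% lower. Mesenchymal markers summed to 0.136 CP10K in set 0 and 1.80 in set 1 in cycling cells, against 0.00692 and 0.0789 in the others, and without the 80 cells richest in markers of other cell types no member was past 2-fold in the whole contrast either.

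Goblet-type cells had lower levels of the adenine nucleotide, phosphate and ornithine carriers, none past 2-fold in both sets. The contrast sets 124 cells above 20 CP10K of Muc2, Fcgbp and Spink4 against 10831 below 5. Median depth was 14965 UMIs in the goblet-type cells and 23076 in the others, 27.4% of the goblet-type cells were cycling, and 79.8% were below 40 CP10K of Fabp1. The 4 Paneth cell markers summed to 25.6 CP10K in set 0 and 39.8 in set 1 in these cells, against 0.0471 and 0.0206 in the others, so the group also held Paneth-type transcripts. The 7 enterocyte markers summed to 247 and 182 CP10K, against 626 and 550, and their part in the values that follow was not tested. No member was past 2-fold higher, beside 4.22% of all genes, and none past 2-fold lower, beside 2.49%. The median log2 ratio was −0.28 over members and 0.01 over all genes. In both sets 5 members were higher (21.7%) and 15 lower (65.2%), beside 40.1% and 38.4% of all genes.

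Slc25a4 stood lowest, with 0.622 CP10K in set 0 and 0.813 in set 1 in goblet-type cells, against 1.11 and 2.62 in the others, a log2 ratio of −0.82 in set 0 and −1.68 in set 1. The sets, far apart in other cells, came near each other here. Slc25a5 had 5.27 and 5.01 CP10K, against 9.39 and 9.37 (log2 −0.87), and Slc25a3 had 10.0 and 8.98, against 17.8 and 15.8 (log2 −0.82). The ornithine carrier Slc25a15 had 0.718 and 0.591 CP10K, against 1.18 and 1.36 (log2 −0.95). Slc25a11 (−0.94) and Slc25a20 (−0.86) were lower in both sets. Slc25a22 (−1.14) had lower means in both, but its set 1 value rests on 2 UMIs, with a ratio of 0.235 (0.0284 to 0.850). In set 0, from 19 UMIs, its ratio of 0.828 (0.498 to 1.30) included 1. Among cells below 40 CP10K of Fabp1 the log2 ratio was −0.88 for Slc25a5, −0.82 for Slc25a4 and −1.03 for Slc25a15.

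Slc25a38 and Slc25a37 had the highest ratios. Slc25a38 had 0.185 CP10K in set 0 and 0.424 in set 1 in goblet-type cells, against 0.160 and 0.147 in the others, and its UMI ratio was 1.23 (0.847 to 1.74) in set 0 and 2.41 (1.53 to 3.63) in set 1. Slc25a37 had 0.205 and 0.386 CP10K, against 0.139 and 0.193 (log2 0.75), and its log2 ratio was 0.19 among cells below 40 CP10K of Fabp1. Slc25a36 (0.33) and Slc25a25 (0.20) had higher means in both sets, while Slc25a51 (0.02) and Slc25a1 (−0.04) were level. As summed UMIs per 10000, the goblet-type interval of Slc25a36 was 0.306 to 0.503 in set 0 and 0.221 to 0.523 in set 1. It included the level of the other cells in both sets (0.379 and 0.276). The interval of Slc25a25 was 0.176 to 0.333 in set 0 and 0.094 to 0.318 in set 1, there from 12 UMIs. It also included the level of the other cells in both sets (0.232 and 0.156).

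Members under 0.1 CP10K are given as values, since few UMIs stand behind them. Slc25a43 had 0.0575 CP10K in set 0 and 0.0519 in set 1 above 100 CP10K of Fabp1, against 0.0161 and 0.0169 below 40, with a UMI ratio of 3.31 (2.63 to 4.20) in set 0 and 2.75 (2.14 to 3.57) in set 1. In cycling cells Slc25a34 had 0.0139 and 0.0265 CP10K, against 0.108 and 0.103 in the others, a UMI ratio of 0.142 (0.0864 to 0.220) in set 0 and 0.278 (0.189 to 0.394) in set 1. The folate carrier Slc25a32 had 9 UMIs in set 0 and 7 in set 1 in goblet-type cells, a UMI ratio of 2.22 (1.01 to 4.26) in set 0 and 3.03 (1.21 to 6.30) in set 1 over the others. Slc25a40 had 0.0982 and 0.0946 CP10K there, against 0.0371 and 0.0304, but its UMI ratio of 1.84 (0.913 to 3.32) in set 0 and 1.88 (0.509 to 4.84) in set 1 included 1. None of the 20 enters the counts above. Of these 20, 5 were higher and 13 lower in both sets in the Fabp1 contrast, beside 33.2% and 57.1% of all genes at the minimum.

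The make-up of the adenine nucleotide carriers shifted with Fabp1 and differed between the sets throughout. Of the UMIs of Slc25a4 and Slc25a5 together, Slc25a4 made 8.71% (8.43 to 8.98), 9.44% (8.93 to 9.96) and 11.6% (11.5 to 11.8) over the rising Fabp1 bands in set 0. In set 1 its share was 17.3% (16.9 to 17.7), 18.6% (18.1 to 19.2) and 24.9% (24.6 to 25.2). Along Fabp6 the share was 10.4%, 10.9% and 12.6% in set 0 and 22.0%, 28.6% and 32.5% in set 1, the last from 27 cells with an interval of 29.1 to 36.1. The share was thus higher at each step of both orderings in both sets, and along Fabp6 the level of Slc25a5 was lower at each step.

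In cycling cells the share was 8.82% in set 0 and 16.4% in set 1, against 11.1% and 23.0% in the other cells. Goblet-type cells had 10.7% (9.02 to 12.5) in set 0 and 13.7% (10.6 to 17.4) in set 1, against 10.8% and 22.3%. Their intervals overlapped between the sets, as in no other of the 12 groups. Slc25a5 was higher in set 1 in 6 of the 12 bands and higher in set 0 in 6. In mean CP10K, Slc25a4 was higher in set 1 in 12 of 12, as were Slc25a17, Slc25a33 and Slc25a37. Slc25a36 and Slc25a40 were higher in set 0 in 12 of 12. The bands of the different orderings regroup the same cells, so these are not independent agreements. The share of all genes so ordered was not counted. As summed UMIs per 10000, Slc25a37 was reversed above 50 CP10K of Fabp6 (0.139 in set 0, 0.124 in set 1). Slc25a33 and Slc25a40 were also reversed in at least 1 band each. With 1 library behind each set, library, embryo pool and genotype cannot be told apart in such differences.

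**Figure D4:**
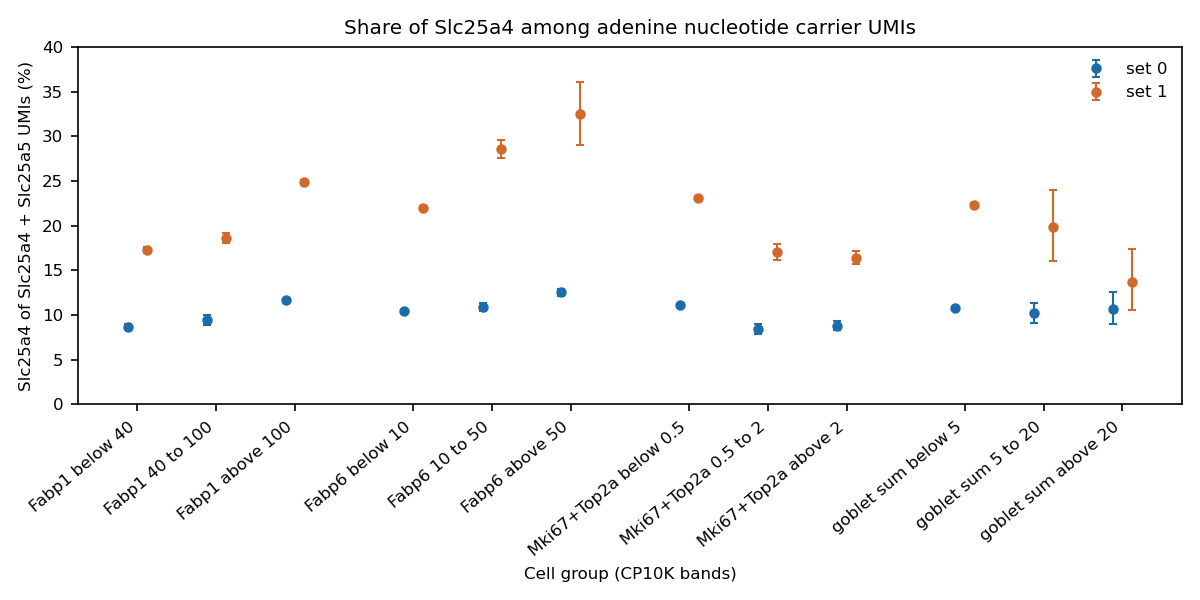
Share of Slc25a4 among the summed UMIs of Slc25a4 and Slc25a5 (%), by cell group and set, with exact 95% binomial intervals for counting error. Set 1 lies above set 0 in all 12 groups, between 13.7% and 32.5% in set 1 and between 8.42% and 12.6% in set 0, and comes nearest to it in goblet-type cells.

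Over the 15 combinations of set and bands, the genes with the pattern most like Slc25a4 were Spg20 (Pearson r of log2 level 0.94), B4galt4 (0.93), Bcam (0.93), Upk3b (0.92) and Got2 (0.90), the mitochondrial aspartate aminotransferase. Most like Slc25a5 were Ndufb8 (0.98), a subunit of respiratory complex I, Atp5g3 (0.95), a subunit of ATP synthase, B2m (0.95), Cyp2d26 (0.94) and 1300002E11Rik (0.94). Slc25a4 and Slc25a5 had an r of 0.41 with each other. The points take in both sets. Slc25a4 was higher in set 1 in 12 of 12 bands and Slc25a5 in 6 of 12. These correlations therefore mix the difference between the sets with the pattern over cells, and none was taken within a set. The points also share cells' libraries and depth, and the values are descriptions of likeness.

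Genes that work with the carriers did not all move with them. The 4 contrasts share cells, so their values stand side by side only. Of 16 listed genes of the machinery that imports carriers into the inner membrane, 15 were at the minimum, all 15 were lower in Fabp1-high cells with a median log2 ratio of −0.41, beside 4495 of 7202 genes with a median of −0.16. None of them was past 2-fold in both sets, beside 8.33% of all genes past 2-fold lower. The largest ratios were those of Tomm5 (−1.01), Timm8a1 (−0.93) and Tomm40 (−0.85). In cycling cells 14 of the 15 were higher, with a median of 0.43, beside 3555 of 7201 genes with a median of −0.01. Tomm40, the channel of the outer membrane, was past 2-fold (1.18), 1 of 15 beside 9.21% of all genes, followed by Timm8a1 (1.16) and Tomm5 (1.13). Along Fabp6, Timm8a1 (−1.47) and Tomm5 (−1.27) were past 2-fold lower, 2 of 15 beside 4.04% of all genes, and Timm9 had −0.86. In goblet-type cells the median was −0.26, led by Timm8b (−0.69), Timm22 (−0.48) and Tomm20 (−0.45), and none was past 2-fold.

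Carriers of the same fold under other names gave 3 of 5 at the minimum. Ucp2, known as an uncoupling protein, had 0.380 CP10K in set 0 and 0.403 in set 1 above 50 CP10K of Fabp6, against 1.20 and 1.25 below 10, past 2-fold lower (log2 −1.62), 1 of 3 beside 4.04% of all genes. It had −0.25 along Fabp1, 0.51 in cycling and 0.63 in goblet-type cells. Mtch1 (−0.41 along Fabp1, −0.29 along Fabp6, 0.27 in cycling and 0.32 in goblet-type cells) and Mtch2 (−0.08, −0.04, −0.12 and −0.71 in that order) were not called in any. Of 18 genes of other mitochondrial transport 13 were at the minimum and none was called in any contrast, with medians of 0.06, −0.04, 0.09 and −0.19 in the same order. Mpc1, a subunit of the pyruvate carrier, had log2 ratios of 0.63 along Fabp1, −0.65 in cycling and −1.01 in goblet-type cells. The others with the largest ratios were Sfxn1 (−0.44) and Smdt1 (0.40) along Fabp1, Mpc2 (−0.52), Vdac3 (−0.51) and Vdac2 (−0.50) along Fabp6, Abcb10 (−0.90) and Smdt1 (−0.62) in cycling cells, and Vdac2 (−0.72) and Mpc2 (−0.59) in goblet-type cells.

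Enzymes that use what the carriers deliver gave 21 of 22 at the minimum, with a median log2 ratio of 0.31 along Fabp1, 0.10 along Fabp6, −0.49 in cycling and −0.67 in goblet-type cells. Along Fabp1, Ass1 (log2 1.46), which joins the citrulline exported by Slc25a15 to aspartate, and Crat (1.36), the carnitine acetyltransferase, were past 2-fold higher, 2 of 21 beside 3.43% of all genes. Shmt2 (−1.76), the mitochondrial serine hydroxymethyltransferase, was past 2-fold lower, 1 of 21 beside 8.33%. In cycling cells Shmt2 was past 2-fold higher (1.86), 1 of 21 beside 9.21% of all genes. Past 2-fold lower were 4 of 21 beside 11.2% of all genes, led by Ass1 (−2.22) and Crat (−1.74). Along Fabp6, 2 of 21 were past 2-fold lower beside 4.04% of all genes, among them Shmt2 (−1.83), and Cps1 had 0.57. In goblet-type cells Acly (1.45), which splits the citrate that Slc25a1 exports, was past 2-fold higher, 1 of 21 beside 4.22% of all genes, while Got1 (−1.32) and Ass1 (−1.26) were not called.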

How the data were processed

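Single-cell 3′ RNA profiles of 1 Tet3 knockout and 1 Control library were given as 1 table of 11871 cells by 25663 genes. The deposited values are a signal scaled by the authors to 10000 per cell. Listed in the submitters' processing notes are Scanpy 1.6.0, alevin and Salmon 0.14.1, with the builds mm10 and GRCm38. How cells were filtered is not stated there.

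Depth was recovered by reading each cell's commonest value above 0 as 1 UMI. Whole multiples of it, within 0.01, made 95.0% of values in the median cell and 84.3% in the lowest. Cells used had 1153 to 250630 UMIs, with a median of 23048. For 818 barcodes found in both suffixes, the rows of set 1 were left out. Over 1452 genes these rows had a median correlation of 0.868 with the set 0 row of the same barcode and 0.740 with that of another barcode, and held a median of 13596.5 UMIs in set 1 and 51368.5 in set 0. Doublets were neither called nor removed. To bear on them, an alternative dropped the 5% deepest cells of each set.

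Log2 ratios of mean CP10K, with 0.01 added to both means, were taken within each set with at least 20 cells on both sides and averaged. Genes needed a mean of 0.1 CP10K. Python 3.11.15, NumPy 2.4.6, SciPy 1.17.1 and Biopython 1.88 were used. The ratios were tested on simulated data with counting error only and with changes larger than 2-fold. That test does not bear on calls near the 2-fold edge. In each contrast the 6 members at the minimum with the highest and the 6 with the lowest ratio are named, with Slc25a4 and Slc25a5, and from each list of other genes the 3 with the largest ratio. The counts cover every member and listed gene, and values of 1 member and 1 listed gene are not reported here. Members, bands and lists were chosen with earlier results of these data known. Cells come from 2 pooled embryos per library, and the cells of a set are not replicates.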

Additional observations from a re-analysis of the deposited data

How the results depend on the processing

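Of 17 alternatives per contrast, 13 were planned and 4 (each set alone, without the 5% of cells with the most UMIs, without cells rich in markers of other cell types) were chosen after seeing the data. Members past 2-fold numbered 2 along Fabp1, 1 along Fabp6, and 0 in the cycling and in the goblet contrast. Of 68 recounts 25 moved by more than 1.5 times. Adding 0.1 CP10K gave 0 along Fabp1 and 0 along Fabp6. A minimum of 0.5 CP10K gave 1 and 0, and a minimum of 0.02 CP10K gave 2 in cycling and 2 in goblet-type cells. Asking for 1.5-fold gave 6 along Fabp1 (5 higher and 1 lower, beside 8.04% and 19.9% of all genes), 2 along Fabp6 (1 and 1, beside 5.11% and 9.53%), 7 in cycling (1 and 6, beside 19.4% and 21.2%) and 8 in goblet-type cells (0 and 8, beside 12.5% and 11.04%). The total without mitochondrially encoded, ribosomal protein and haemoglobin genes gave 1 along Fabp1 and 1 in cycling cells. Pooling the cells of both sets gave 2 in cycling and 1 in goblet-type cells, and leaving the shared barcodes out of both sets gave 1 in goblet-type cells (Slc25a4). Set 0 alone gave 0 along Fabp6 and 3 in cycling cells, and set 1 alone gave 3 along Fabp6 and 6 in goblet-type cells. Leaving out cycling and goblet cells gave 1 along Fabp1. Sharper bands gave 2 along Fabp6 (above 100 over below 5 CP10K), 1 in cycling (above 5 over below 0.5) and 6 in goblet-type cells (above 50 over below 2). Without the cells with most UMIs the cycling count was 1, and within cells below 40 CP10K of Fabp1 it was 2. Except where stated in the text, the cause was not tested. The called values (Slc25a4 and Slc25a37 along Fabp1, Slc25a17 along Fabp6) kept their direction in 17 of 17 alternatives each. Members that were not called did change sign, among them Slc25a4 along Fabp6 in 7 of 17 and Slc25a5 in cycling cells in 1 of 17. Of 850 recomputed ratios of members, 155 moved by more than their counting error. In the Fabp6 contrast, 2 alternatives (at least 5000 UMIs and at most 10% mitochondrial signal, and above 100 over below 5 CP10K) rest on set 0, because set 1 had under 20 such cells. No paired analysis was possible because both libraries are labelled replicate 1 and no test was made. Depth limits the 20 members under 0.1 CP10K, set 1 above 50 CP10K of Fabp6 (27 cells) and the goblet-type cells of set 1 (48 cells).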
